A study of Mus musculus with 48 samples.

Results

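Regions of chromatin open mainly in iNKT2 cells were described by their position, the genes beside them and the RNA of those genes. A region was taken when it was at most 10000 bp wide, its mean over the iNKT2 ATAC-seq libraries was at least 5 CPM (counts scaled to a common library total), and that mean was at least 2.5 times both the iNKT1 mean and the iNKT17 mean. Of 54524 regions in all, 54489 were within the width limit and 1798 met the rule. The rule used the ATAC levels of iNKT2 against the other sublineages, so these levels and their folds are descriptions and were not tested.

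Invariant natural killer T (iNKT) cells were sorted as iNKT1, iNKT2 and iNKT17 cells from thymi of FVB/N mice, with no treatment, and each sublineage had 2 ATAC-seq libraries and 2 bulk RNA-seq libraries. ATAC-seq reads out accessible DNA through insertions of the Tn5 transposase. The labels give neither the age of these mice nor whether thymi were pooled. They also do not say that replicate libraries came from separate animals, and the p-values here reflect no more than library-to-library spread.

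iNKT2 cells are the thymic sublineage known for IL-4 and IL-13 and for high levels of PLZF, the zinc finger factor encoded by Zbtb16 that directs innate-like T cell development. GATA3 is the type 2 lineage factor and T-bet (Tbx21) that of iNKT1 cells. Open regions away from start sites are often enhancers, stretches of DNA to which transcription factors bind and which can act on a promoter at a distance.

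A few of the regions cover a start site. Promoters of 4 genes are shown, from genes whose RNA was higher in each iNKT2 library than in each other library and whose start site lay under such a region: Izumo1r (folate receptor 4 of T cells), Chn1 (a Rac GTPase-activating protein), Cd81 (a tetraspanin) and Themis (a signalling adaptor needed for thymocyte selection). Each is the 250 bases before a listed start site, 5′ to 3′, from RefSeq on GRCm38.p6, and lies within the region. The listed Chn1 and Izumo1r starts lie inside their gene intervals, not at the 5′ ends. The Izumo1r interval reaches to position 14903951, so most of the bases shown, with the capitals, lie inside it. Capitals mark matches on either strand to the letters AGATAA for GATA factors, TGTGGT for RUNX factors, CAGGAA for ETS factors or CAGCTG for E proteins (an E box form).
Izumo1r, chr9:14903768-14904017, minus strand: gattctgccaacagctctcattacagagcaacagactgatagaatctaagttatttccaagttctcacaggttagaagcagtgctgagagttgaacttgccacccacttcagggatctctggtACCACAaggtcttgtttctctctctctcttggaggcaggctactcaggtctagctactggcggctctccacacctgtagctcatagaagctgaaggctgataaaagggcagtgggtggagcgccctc
Chn1, chr2:73660424-73660673, minus strand: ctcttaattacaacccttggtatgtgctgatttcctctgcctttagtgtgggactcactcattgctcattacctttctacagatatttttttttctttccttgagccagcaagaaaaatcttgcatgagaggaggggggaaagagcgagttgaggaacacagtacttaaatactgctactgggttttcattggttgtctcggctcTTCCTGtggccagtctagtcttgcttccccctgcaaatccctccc
Cd81, chr7:143052500-143052749, plus strand: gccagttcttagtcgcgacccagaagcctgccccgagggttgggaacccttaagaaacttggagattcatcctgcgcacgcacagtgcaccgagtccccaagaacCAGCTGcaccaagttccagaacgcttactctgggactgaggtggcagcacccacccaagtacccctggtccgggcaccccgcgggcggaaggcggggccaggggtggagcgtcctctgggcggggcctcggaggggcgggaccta
Themis, chr10:28668110-28668359, plus strand: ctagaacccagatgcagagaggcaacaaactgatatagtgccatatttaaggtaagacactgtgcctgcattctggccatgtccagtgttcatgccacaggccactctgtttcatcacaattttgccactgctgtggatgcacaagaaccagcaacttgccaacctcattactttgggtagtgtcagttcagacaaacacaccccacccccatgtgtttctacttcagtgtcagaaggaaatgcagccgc
Izumo1r held 1 RUNX match, Chn1 held 1 ETS match, Cd81 held 1 E box match and Themis held 0 of the 4 motifs. Over the 59 listed promoters with most of these bases under one of the 857 regions that both iNKT2 libraries supported (described next), CAGCTG was present in 14 (23.7%, against 13.1% of all 32536 listed promoters) and CAGGAA in 8 (13.6% against 25.6%). The other E box form searched, CAGGTG, was present in 16.9% against 17.3%. TGTGGT was present in 15.3% against 14.0% and AGATAA in 6.78% against 9.97%. These are matches of letters, given as a description.

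The libraries did not support all 1798 regions alike. In 857 (47.7%) both iNKT2 libraries were above all 4 iNKT1 and iNKT17 libraries, a pattern found in 13.8% of all 54489 regions. In the other 941 only iNKT2 library 2 was above them, and no region rested on iNKT2 library 1 alone. The same rule applied to the other sublineages gave 1356 iNKT1 regions and 2280 iNKT17 regions, and in all of them both libraries of the sublineage were above the 4 others. The 941 therefore go against the description "open mainly in iNKT2". They are called library 2 regions here and the 857 both-library regions, a split made after the values were seen. Results are given for each kind.

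The library 2 regions were narrow. Their median width was 87 bp (quartiles 86 and 91 bp), and 840 of the 941 were at most 100 bp wide, against 1037 of all 54489 regions (1.90%). The both-library regions had a median width of 512 bp (quartiles 401 and 623 bp), and 2 of the 857 were that narrow. Library 2 regions held 11.7% of all counts of iNKT2 library 2 and 0.294% of those of iNKT2 library 1.

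In the library 2 regions the median level was 0.791 and 5.10 CPM in iNKT1 libraries 1 and 2, 1.21 and 33.7 CPM in iNKT2 libraries 1 and 2, and 1.03 and 3.73 CPM in iNKT17 libraries 1 and 2. Library 2 was thus above library 1 in every sublineage. The ratio of library 2 to library 1 had a median of 33.6 in iNKT2, 6.74 in iNKT1 (above 1 in 941 of 941) and 3.96 in iNKT17 (above 1 in 914 of the 935 regions with a count in iNKT17 library 1). The ratio of iNKT2 library 2 to iNKT1 library 2 was nearly the same from region to region, with a median of 6.80 and quartiles of 5.98 and 7.80. Over these 941 regions the levels of those 2 libraries had a Spearman correlation of 0.968, a description in which every point shares the same 2 libraries. The part of width, library preparation or read mapping in these levels was not tested.

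The 10 regions with the highest iNKT2 mean were all of this kind. The region at chr13:56890306-56890392, inside Trpc7 (a cation channel gene), measured 59.2 and 457 CPM in iNKT1, 67.6 and 2931 CPM in iNKT2 and 64.8 and 188 CPM in iNKT17. The libraries numbered 1 lay close together and the second iNKT2 library stood far above the rest. Others among the 10 lay at or near Nrp1, Atp2b1, Usp6nl, Lamp5, Msi2, Psmf1, Epg5 and Kat6b.

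**Figure D1:**
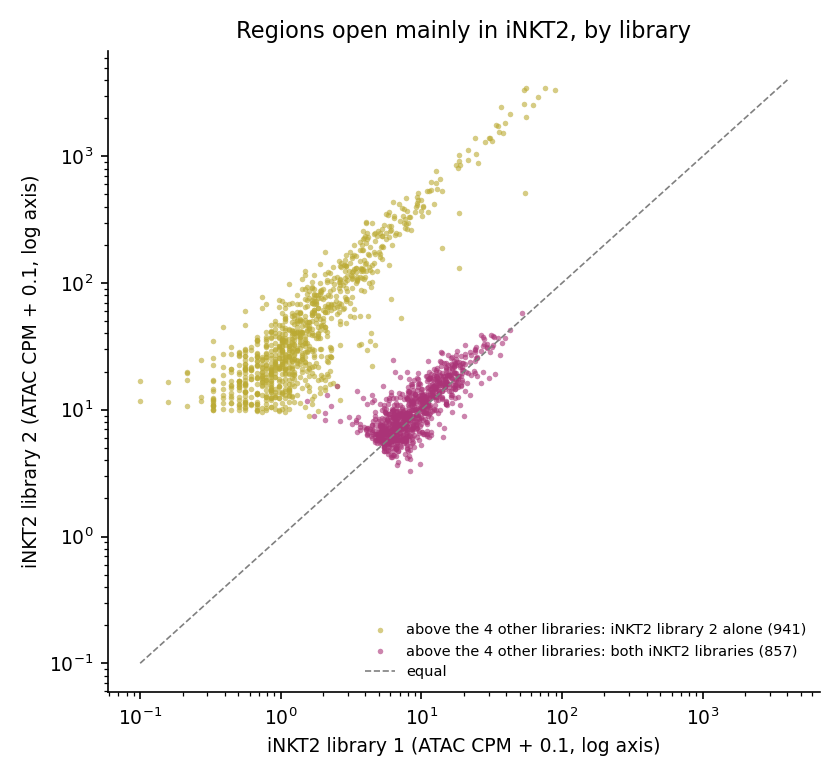
ATAC level of each of the 1798 regions in iNKT2 library 1 (x) and library 2 (y), in CPM plus 0.1 on log axes, with 1 point per region. The 857 both-library regions lie near the dashed line of equal levels, and the 941 library 2 regions form a separate band above it.

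In the both-library regions the median level was 1.16 and 0.941 CPM in iNKT1, 8.29 and 9.40 CPM in iNKT2 and 2.67 and 2.1 CPM in iNKT17. The libraries of each sublineage lay close together, and the ratio of iNKT2 library 2 to library 1 had a median of 1.13 (quartiles 0.928 and 1.36). The iNKT2 mean was 3.36-fold above the higher of the other means at the median and 30.1-fold at most.

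**Figure D2:**
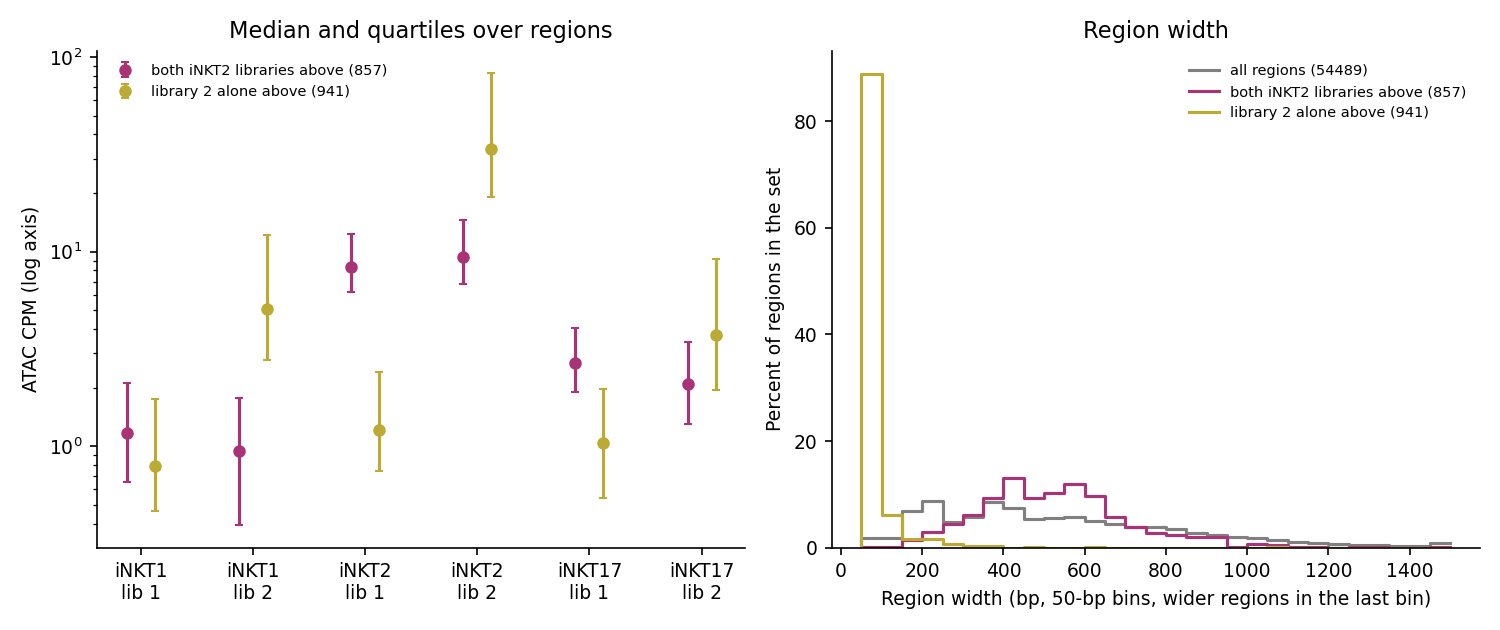
Left, median ATAC level (points) and quartiles (bars) over regions in each library, in CPM on a log axis, for the both-library and the library 2 regions. Right, region width in bp against the percent of regions in each set; nearly all library 2 regions fall in the bins at or next to 100 bp, while both-library regions centre on 512 bp.

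The rule was then applied to the libraries of 1 replicate number and read in those of the other. Chosen on the libraries numbered 1 alone, 733 regions met the rule. iNKT2 was highest in the libraries numbered 2 for 731 of them (99.7%, against 28.6% of all regions), and 562 (76.7%, against 4.55%) were again at least 2.5-fold above. Chosen on the libraries numbered 2 alone, 2153 regions met the rule, of which 916 were at most 100 bp wide. In the libraries numbered 1, iNKT2 was highest for 1727 of these (80.2%, against 37.6%), and 618 (28.7%, against 1.90%) kept the 2.5-fold difference. Without iNKT2 library 2 the rule gave 853 regions, 669 of them among the 1798, and without iNKT2 library 1 it gave 2036.

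At the edge of the rule the values differed little. Just inside lay regions in Trio (2.501-fold), Ntn1 (2.501-fold) and Dip2b (2.504-fold), and just outside lay regions in Tbc1d10a (2.497-fold), near Mgst2 (2.498-fold) and in Tsku (2.499-fold).

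Start sites were rare among the regions. A region was placed at a start site when its centre lay within 1000 bp of a listed one, otherwise in the body of a gene, within 10 kb of a gene, or farther. Only named protein-coding genes were used for this. Of the 1798 regions 60 (3.34%, exact 95% binomial interval 2.56 to 4.27, counting error only) lay at a start site, against 21.2% of all regions. The both-library regions had 44 of 857 there (5.13%) and the library 2 regions 16 of 941 (1.70%).

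Most both-library regions lay inside genes. Of the 857, 504 (58.8%) were in a gene body, against 42.9% of all regions, 101 (11.8%) were within 10 kb of a gene and 208 (24.3%) were farther. Of the library 2 regions, 43.1% lay in gene bodies and 46.4% farther than 10 kb from any named protein-coding gene. The median distance to the nearest listed start site was 32.5 kb for both-library regions, 75.5 kb for library 2 regions and 18.5 kb for all regions. Chromosome X held 3 both-library regions (0.350%) and 45 library 2 regions (4.78%), against 2.09% of all regions. Start sites are listed for 14652 of the 18481 genes used, so shares at start sites are lower limits in each set.

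**Figure D3:**
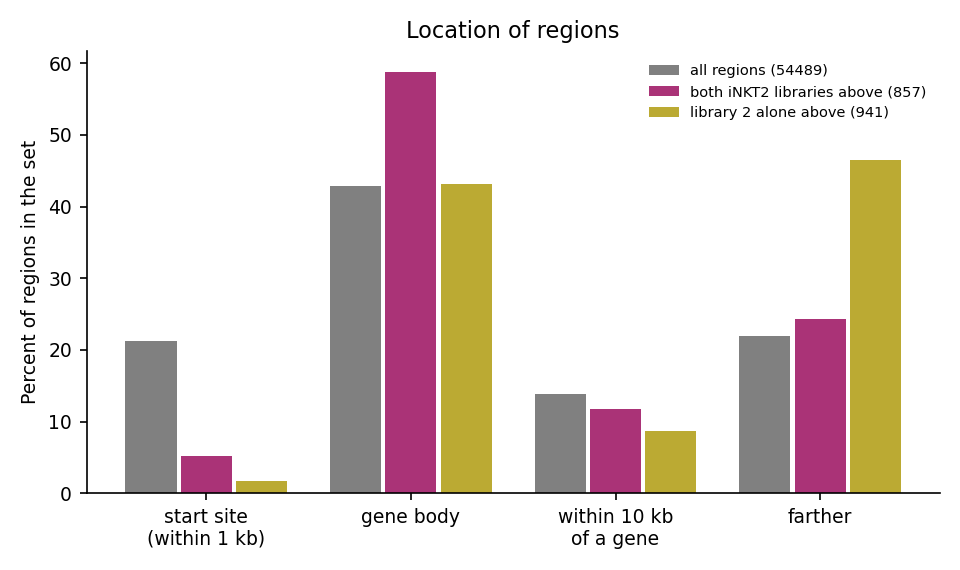
Percent of regions (y) at start sites, in gene bodies, within 10 kb of a gene and farther, for all regions, the 857 both-library regions and the 941 library 2 regions. Both region kinds are below all regions at start sites (5.13% and 1.70% against 21.2%), and both-library regions are above all regions in gene bodies (58.8% against 42.9%).

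The regions were then compared between iNKT17 and iNKT1, a contrast that does not use the iNKT2 level, although the rule caps both means. Of the 857, 348 were higher in iNKT17 and 18 lower (edgeR's quasi-likelihood test, Benjamini-Hochberg adjusted p under 0.05), or 40.6% and 2.1%, against 23.5% and 13.6% of all 54520 regions tested. Their median log2 difference was 0.94 against 0.07 over all regions. The iNKT17 mean exceeded the iNKT1 mean in 745 of the 857 (86.9%, against 61.2% of all regions). Since the rule and the split used all 6 libraries, these values describe the chosen regions. Of the 941 library 2 regions 0 passed in either direction, so over the 1798 together the counts were the same 348 (19.4%) and 18 (1.00%). The share of all regions called also moved when a library was left out. Without iNKT1 library 2, 218 were higher and 6 lower, against 16.1% and 7.49% of all regions. Without iNKT1 library 1 the lower regions numbered 11 (9.17% of all regions), without iNKT17 library 1 they numbered 30 (9.57%) and without iNKT17 library 2 they numbered 5 (12.1%). Scaling by column totals in place of TMM moved the median of all regions from 0.07 to 0.24 and gave 371 higher and 12 lower, against 25.8% and 10.1% of all regions.

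The highest both-library region, chr6:50776729-50777501, lay 122670 bp from Npvf, a neuropeptide gene. It measured 1.02 and 0.941 CPM in iNKT1, 52.1 and 57.4 CPM in iNKT2 and 18.6 and 21.5 CPM in iNKT17. The next were in Trak1 (42.4 and 42.3 CPM in iNKT2), Tcf25 (39.4 and 36.5 CPM) and Epb41 (35 and 36.6 CPM). The fold was largest in Chn1, where chr2:73632091-73632504 measured 0.163 and 0.0784 CPM in iNKT1, 3.57 and 7.22 CPM in iNKT2 and 0.272 and 0.0862 CPM in iNKT17. These regions were named after their values were seen.

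The 857 both-library regions were assigned to 712 genes, of which 106 had 2 or more. Chn2, which encodes beta2-chimaerin, a diacylglycerol-binding Rac GTPase-activating protein, had the most, with 7 of its 30 regions and all 7 in its body. The strongest of them, chr6:54127107-54127882, measured 6.54 and 4.63 CPM in iNKT1, 23.9 and 30.3 CPM in iNKT2 and 6.10 and 8.04 CPM in iNKT17. At the start of the gene, chr6:54039408-54040717 was open at 37.7, 37.5 and 21.0 CPM in the 3 sublineages and did not meet the rule. Chn2 RNA was 212 and 211 CPM in iNKT1, 261 and 289 CPM in iNKT2 and 44.9 and 82.9 CPM in iNKT17. It was higher in iNKT2 than in iNKT17 (log2 difference 2.11 ± 0.39 SE, adjusted p = 0.0486 by edgeR's quasi-likelihood test) and was not called against iNKT1 (0.38 ± 0.37, adjusted p = 1). The call against iNKT17 held when each library was left out in turn, with an adjusted p of at most 0.0446.

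Its relative Chn1 had 4 of its 6 regions among the both-library regions, with 1 at a listed start site. This start lies inside the Chn1 gene interval, chr2:73610660-73775367, and not at its 5′ end. RNA was counted per gene, so transcripts from different starts were not told apart. The region at this start, chr2:73659757-73660767, measured 0.861 and 0.863 CPM in iNKT1, 14.6 and 18.3 CPM in iNKT2 and 2.72 and 1.12 CPM in iNKT17. Chn1 RNA was 29.7 and 16.9 CPM in iNKT2 (878 and 469 counts) and had 0 counts in all 4 other libraries. Against a floor of 3 counts over those 4 libraries, the iNKT2 mean was at least 941-fold higher, yet edgeR's quasi-likelihood test did not call the gene against the mean of the others (adjusted p = 0.36). In these RNA data the biological coefficient of variation was 1.30, against 0.298 for ATAC.

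Tgfbr3 (betaglycan, a co-receptor for TGF-beta) had 6 both-library regions of 21, 5 of them in its body. RNA of Tgfbr3 was 48.8 and 20.2 CPM in iNKT1, 96.7 and 73.3 CPM in iNKT2 and 12.6 and 22 CPM in iNKT17, so the iNKT2 libraries were the highest, without a call. Sh3bp4, which encodes an adaptor of receptor endocytosis, had 5 both-library regions and 1 library 2 region, while its RNA was detected in only 2 of the 6 libraries (5.85 CPM in iNKT2 library 2 and 1.12 CPM in iNKT17 library 2). Ets2 and Pgrmc2 had 4 both-library regions each. Lsamp had 5 library 2 regions and no RNA count in any library. Msi2 and Arid1b had 2 both-library regions each beside 3 and 2 library 2 regions. Fhit had 3 both-library regions and no RNA count in any library, and Pard3b had 3 with RNA of 5.42 CPM or less in each library.

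RNA was then tested beside the regions. Of the 1509 genes assigned to any of the 1798 regions, 869 passed the low-count filter, and of the 712 genes with a both-library region 508 did. In bulk samples fewer cells of a type and less RNA per cell cannot be told apart. Against the mean of iNKT1 and iNKT17, 8 of the 869 were higher and 4 lower in iNKT2 (0.921% and 0.460%, edgeR's quasi-likelihood test, adjusted p under 0.05), against 0.445% and 0.590% of the 9662 genes tested that carry any region. Of the 508 genes with a both-library region, 7 were higher and 1 lower (1.38% and 0.197%). Their median log2 difference was 0.27 against 0.13 over all genes with a region.

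The counts were small and moved with single libraries. The genes higher numbered 32 without iNKT1 library 1 (3.40% of those tested, against 1.66% of all genes with a region in the same fit) and 13 without its library 2 (1.34% against 0.621%). Dropping iNKT17 library 1 gave 60 (6.19% against 4.86%) and dropping iNKT17 library 2 gave 27 (2.78% against 1.60%). The genes lower numbered 7 without iNKT1 library 1 (0.745% against 0.780%), and 7 and 10 when the first or second iNKT2 library was dropped (0.728% against 0.834%, and 1.08% against 1.1%). With the first or second iNKT17 library dropped there were 17 and 12 (1.75% against 1.70%, and 1.24% against 1.33%). At an unadjusted p under 0.05, 102 of the 869 and 876 of the 9662 passed. Other processing moved these counts as well. DESeq2 called 66 higher and 39 lower genes (background 4.09% and 4.48%), and edgeR without the low-count filter called 27 and 23 (1.11% and 1.76%).

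Against iNKT1 alone 10 genes were higher and 6 lower (background 0.611% and 0.880%), of which 8 and 5 had a both-library region. Against iNKT17 alone 5 were higher and 5 lower (background 0.331% and 0.517%). All 5 higher genes had both-library regions (0.984% of the 508 tested), and all 5 lower genes (Serpinb1a, Sdc1, Sh3pxd2b, Srgap3 and Thy1) had library 2 regions alone (1.39% of the 361 tested). The split was not complete in DESeq2, which called 55 higher and 17 lower of 573 genes with a both-library region (9.60% and 2.97%). Of 444 genes with library 2 regions alone it called 19 and 26 (4.28% and 5.86%). The edgeR counts without the low-count filter were 16 and 8 (2.79% and 1.40%), and 4 and 13 (0.901% and 2.93%), in the same order. DESeq2 called 57 higher and 53 lower against iNKT1 (background 3.95% and 4.35%) and 74 and 43 against iNKT17 (5.28% and 4.90%). Without the low-count filter edgeR called 27 and 25 against iNKT1 (1.40% and 2.30%) and 20 and 21 against iNKT17 (1.07% and 1.75%). These comparisons share the iNKT2 libraries and are given side by side. Against iNKT1 the higher genes numbered 33 without iNKT1 library 1 (1.89% of all genes), and 21 and 20 without iNKT17 libraries 1 and 2 (1.27% and 1.37%). The lower genes numbered 11 without iNKT2 library 2 (1.42%), and 21 and 22 without iNKT17 libraries 1 and 2 (2.15% and 2.26%). Against iNKT17 the higher genes numbered 8 without iNKT1 library 2 (0.373%), 9 without iNKT2 library 1 (0.518%), and 55 and 25 without iNKT17 libraries 1 and 2 (5.63% and 1.35%). The lower genes there numbered 9 to 14 as each library was left out, with 0.863% to 1.55% of all genes.

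Among transcription factors, Zbtb16 carried 1 both-library region, chr9:48681090-48681475 in its body. Zbtb16 RNA was 95.8 and 46.6 CPM in iNKT1, 739 and 520 CPM in iNKT2 and 543 and 587 CPM in iNKT17. The iNKT2 and iNKT17 libraries overlapped, and the gene was higher in iNKT2 against iNKT1 (log2 difference 3.14 ± 0.38, edgeR adjusted p = 0.00308) and against the mean of both (1.65 ± 0.29, adjusted p = 0.0373). Neither call was lost when a library was left out.

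Id3, an inhibitor of E protein transcription factors, had 2 both-library regions, centred 20701 and 36878 bp upstream of its start. The farther one, chr4:136106771-136107118, measured 1.82 and 1.18 CPM in iNKT1, 19.1 and 15.6 CPM in iNKT2 and 7.57 and 6.12 CPM in iNKT17. RNA of Id3 followed the same order, at 15.6 and 22.3 CPM, 198 and 235 CPM, and 117 and 155 CPM, with no overlap between sublineages. It was called against the mean of the others (2.09 ± 0.34, edgeR adjusted p = 0.0264), but not without iNKT2 library 2 (adjusted p = 0.0931). Against iNKT1 the log2 difference was 3.52 ± 0.45 (edgeR adjusted p = 0.00441), and against iNKT17 it was 0.67 ± 0.41 without a call (adjusted p = 0.698).

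Runx1 had 1 both-library region, at chr16:93109725-93110195 and 283886 bp upstream of its listed start. It measured 1.26 and 0.980 CPM in iNKT1, 14.0 and 28.0 CPM in iNKT2 and 4.84 and 7.44 CPM in iNKT17. Runx1 RNA was higher in iNKT17 (179 and 213 CPM) than in iNKT2 (71.8 and 74.1 CPM) and near 0 in iNKT1 (0.196 and 0 CPM). It was called above the mean of the others (4.04 ± 0.68, edgeR adjusted p = 0.0312) with iNKT1 near 0 and iNKT17 the highest. Myb, whose only such region was a library 2 region, was also near 0 in iNKT1 alone, with overlapping RNA of 227 and 121 CPM in iNKT2 and 219 and 417 CPM in iNKT17, and 0.131 and 0.120 CPM in iNKT1.

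Among chemokine receptors, Ccr7, which guides T cells to lymphoid tissue, had 3 both-library regions between 7574 and 15891 bp from the gene. The region at chr11:99168071-99168422 measured 0.396 and 0.0784 CPM in iNKT1, 4.89 and 8.35 CPM in iNKT2 and 0.490 and 0.460 CPM in iNKT17. The neighbouring chr11:99170664-99171272 measured 0.791 and 0.274, 16.8 and 21.6, and 4.35 and 4.37 CPM. Neither set of iNKT2 values overlapped the others. Ccr7 RNA was 0.0653 and 0 CPM in iNKT1 (2 and 0 counts), 57.6 and 158 CPM in iNKT2 and 56.6 and 30.9 CPM in iNKT17. The lower iNKT2 library was thus level with the higher iNKT17 library, and the gene was not called between these sublineages (1.30 ± 0.98, edgeR adjusted p = 0.752). It was called against the mean of both (adjusted p = 0.0153), but not without iNKT2 library 2 (0.16). Ccr2 had 1 both-library region and RNA of 321 and 207 CPM in iNKT1, 1384 and 767 CPM in iNKT2 and 735 and 793 CPM in iNKT17, higher in iNKT2 than in iNKT1 (2.03 ± 0.32, adjusted p = 0.0144).

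**Figure D4:**
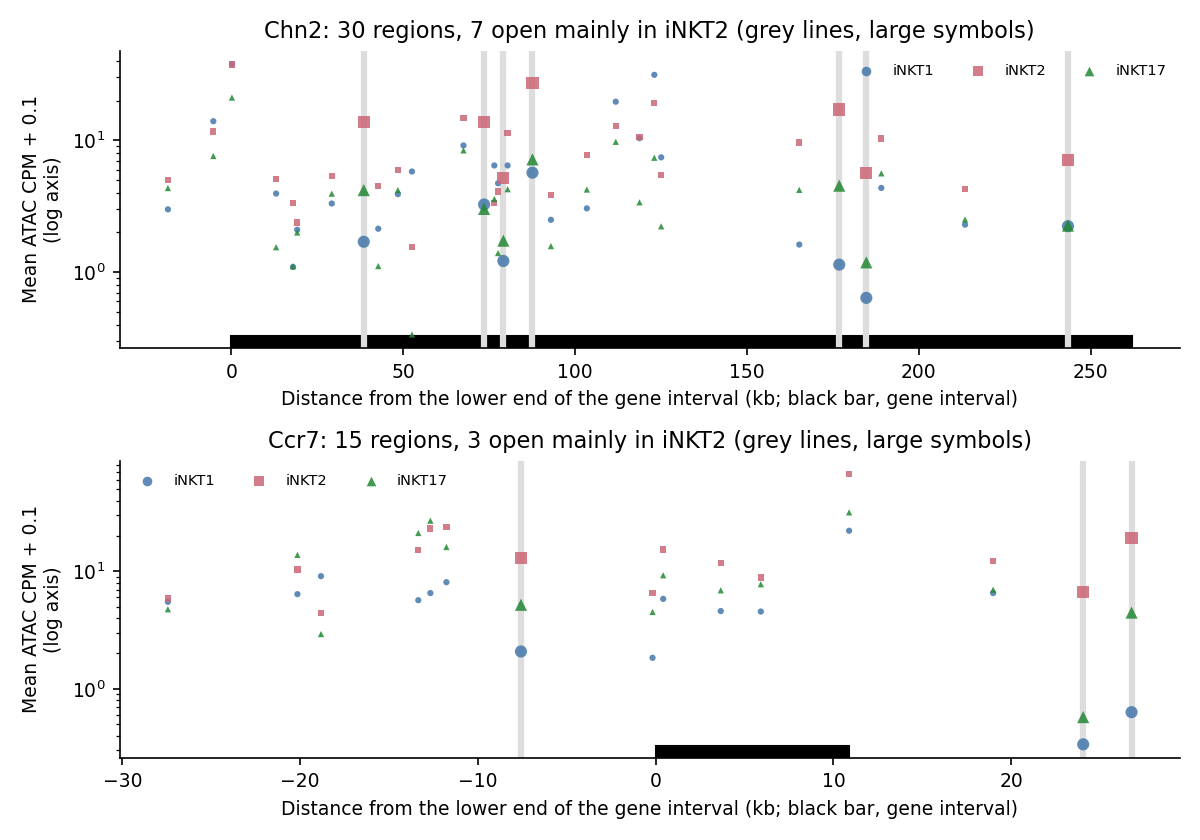
Mean ATAC level per sublineage (CPM plus 0.1, log axis) of every region assigned to Chn2 (top) and Ccr7 (bottom), by distance from the lower end of the gene interval in kb, with the gene as a black bar. Grey lines and large symbols mark the 7 and 3 regions that met the rule, where iNKT2 squares lie above the iNKT1 and iNKT17 symbols. The region over the Chn2 start does not show this, while the one over the Ccr7 start is at 67.2 CPM in iNKT2 against 22.1 and 31.7 CPM in iNKT1 and iNKT17, short of the 2.5-fold rule.

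Signalling genes followed. Pde3b, a cyclic nucleotide phosphodiesterase, had 2 both-library regions in its body. The stronger, chr7:114494049-114494384, measured 3.93 and 4.31 CPM in iNKT1, 17.21 and 23.1 CPM in iNKT2 and 3.76 and 4.83 CPM in iNKT17. Pde3b RNA was 253 and 234 CPM in iNKT1, 587 and 715 CPM in iNKT2 and 112 and 79.5 CPM in iNKT17, with no overlap. It was higher in iNKT2 than the mean of the others (2.09 ± 0.23, edgeR adjusted p = 0.00398) and kept the call without each library. Against iNKT17 the log2 difference was 2.77 ± 0.30 (adjusted p = 0.00308), and against iNKT1 it was 1.42 ± 0.29 (adjusted p = 0.0516).

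Fam3c, a secreted factor, had 2 both-library regions 53013 and 68345 bp upstream. Its RNA was 65.5 and 90.8 CPM in iNKT1, 313 and 275 CPM in iNKT2 and 51.0 and 80.5 CPM in iNKT17 (2.04 ± 0.33 against the mean, edgeR adjusted p = 0.0252, or 0.0527 without iNKT2 library 1). Iigp1, an interferon-inducible GTPase, had 1 both-library region in its body and RNA of 109 and 49.4 CPM in iNKT2, with 3 counts in 1 of the 4 other libraries and 0 in the rest. It was called against the mean (adjusted p = 0.0425), but not without iNKT2 library 1 (0.625). Prkch, a protein kinase C isoform, had 2 both-library regions in its body and RNA of 510 and 345, 420 and 426, and 87.1 and 54.8 CPM in iNKT1, iNKT2 and iNKT17, higher in iNKT2 than in iNKT17 (2.57 ± 0.34, adjusted p = 0.0103).

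RNA of some genes went the other way. Ifng, the type 1 cytokine gene, had 2 both-library regions 14557 and 15626 bp away. The first, chr10:118460021-118460881, measured 1.72 and 1.69 CPM in iNKT1, 13.9 and 17.5 CPM in iNKT2 and 2.61 and 1.90 CPM in iNKT17. Ifng RNA was highest in iNKT1, at 354 and 561 CPM, against 4.73 and 25.8 CPM in iNKT2 and 0.128 and 0.309 CPM in iNKT17. It was lower in iNKT2 than in iNKT1 (-4.90 ± 0.85, edgeR adjusted p = 0.0396) and higher than in iNKT17 (6.13 ± 0.96, adjusted p = 0.0394). Both calls were lost without either iNKT17 library (adjusted p up to 0.417 and 0.586).

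Il12rb2, a subunit of the IL-12 receptor, had 1 both-library region in its body and RNA of 182 and 118 CPM in iNKT1 against 0.116 CPM or less in every other library (1 to 3 counts each). It was lower in iNKT2 than in iNKT1 (edgeR adjusted p = 0.00232, or 0.0584 without iNKT1 library 1). Maml2, a Notch coactivator, had 3 both-library regions in its body. Maml2 RNA was 82.0 and 87.3 CPM in iNKT1, 25.7 and 33.2 CPM in iNKT2 and 0 and 0.0773 CPM in iNKT17. The iNKT2 level lay between the others, and was called above iNKT17 (adjusted p = 0.048, or up to 0.0621 without either iNKT1 library). Il10ra, Ripor2 and Ptprc also had 1 both-library region each and less RNA in iNKT2 than in iNKT1.

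At the type 2 cytokine genes, 3 both-library regions lay nearest the starts of Il4 or Il13. In textbook accounts the neighbouring Rad50 gene holds the locus control region of this cluster. The region in Rad50, chr11:53655017-53655524 and 20568 bp upstream of Il13, measured 6.59 and 4.59 CPM in iNKT1, 24.7 and 25.9 CPM in iNKT2 and 6.70 and 8.99 CPM in iNKT17. A weaker one 12299 bp upstream of Il13 measured 6.27 and 4.29 CPM in iNKT2, and one in Kif3a, 19057 bp from the Il4 start, 6.45 and 4.21 CPM. In all 3 the iNKT2 libraries were above the others. Il4 RNA was 0 and 0.0299 CPM in iNKT1, 37.0 and 47.7 CPM in iNKT2 and 11.6 and 21.3 CPM in iNKT17. RNA of Il13 was 22.9 and 32.6 CPM in iNKT2 and 18.5 CPM in iNKT1 library 2, with 0 counts in the other 3 libraries. Neither was called by edgeR with all 6 libraries, while DESeq2 called both higher against the mean of the others. Rad50 RNA showed no call.

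Gata3 had 1 both-library region among its 37, 663712 bp from the gene, and its RNA did not separate the sublineages, at 125.4 and 225, 154 and 151, and 155 and 238 CPM. Izumo1r had 1 of 7, the promoter region shown above, at 7.45 and 9.49 CPM in iNKT1, 24.1 and 28.3 CPM in iNKT2 and 9.58 and 10.6 CPM in iNKT17. RNA of Izumo1r was 237 and 282 CPM in iNKT2, 30.7 and 0.0299 CPM in iNKT1 and 0 and 39.1 CPM in iNKT17. The iNKT2 libraries were the highest, but the gene was not called (edgeR adjusted p = 0.81 against the mean). Without the low-count filter edgeR called Izumo1r higher against the mean. Il4ra, an IL-4 receptor chain, had a library 2 region alone. RNA of Il4ra was 111 and 55.9 CPM in iNKT1, 0.0676 and 0.0361 CPM in iNKT2 and 6.16 and 0.0387 CPM in iNKT17. With all 6 libraries and the low-count filter edgeR did not call it. Both edgeR without the filter and DESeq2 called Il4ra lower in iNKT2, against iNKT1 and against the mean of the others.

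Start-site regions gave the closest link between a region and a gene. The 44 both-library regions at start sites belonged to 43 genes, of which 41 had RNA values, 16 passed the low-count filter and 16 had no count in any RNA library. Of the 16 that passed, 9 had both iNKT2 RNA libraries above the 4 others (10.1% of the 9662 genes did), and 0 were called in either direction by edgeR against the mean of the others. These 9 were Cd81, Chn1, Gnas, Izumo1r, Limk2, Themis, Tmie, Tnfrsf4 and Tspan31. The low-count filter fixed part of that count, and nothing is read from it: Chn1 and Tmie had 0 counts in all other libraries, and Cd81, Themis and Tnfrsf4 had more than 1 count in a single other library each.

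Tnfrsf4 (OX40, a costimulatory receptor) had a start-site region at chr4:156013360-156014095 with 1.44 and 1.41 CPM in iNKT1, 23.4 and 20.2 CPM in iNKT2 and 3.97 and 1.52 CPM in iNKT17. Tnfrsf4 RNA was 13.6 and 17.22 CPM in iNKT2 and 3.33 CPM or less elsewhere. The Cd81 region, chr7:143052388-143052974, measured 1.75 and 1.29, 13.8 and 12.3, and 2.07 and 1.26 CPM, and Cd81 RNA was 19.0 and 68.8 CPM in iNKT2 and 1.82 CPM or less elsewhere. At Themis, chr10:28667995-28668673 measured 1.42 and 2.51, 10.3 and 9.32, and 2.99 and 4.71 CPM. Themis RNA was 41.4 and 19.0 CPM in iNKT2 and 2.61 CPM or less elsewhere. In all 3 genes region and RNA were highest in both iNKT2 libraries. Tef, with a start-site region at 26.1 CPM in iNKT2 and 6.53 and 7.17 CPM in iNKT1 and iNKT17, did not share this, with RNA of 4.36 and 34.5 CPM in iNKT2 and 29.1 to 77.2 CPM elsewhere.

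**Figure D5:**
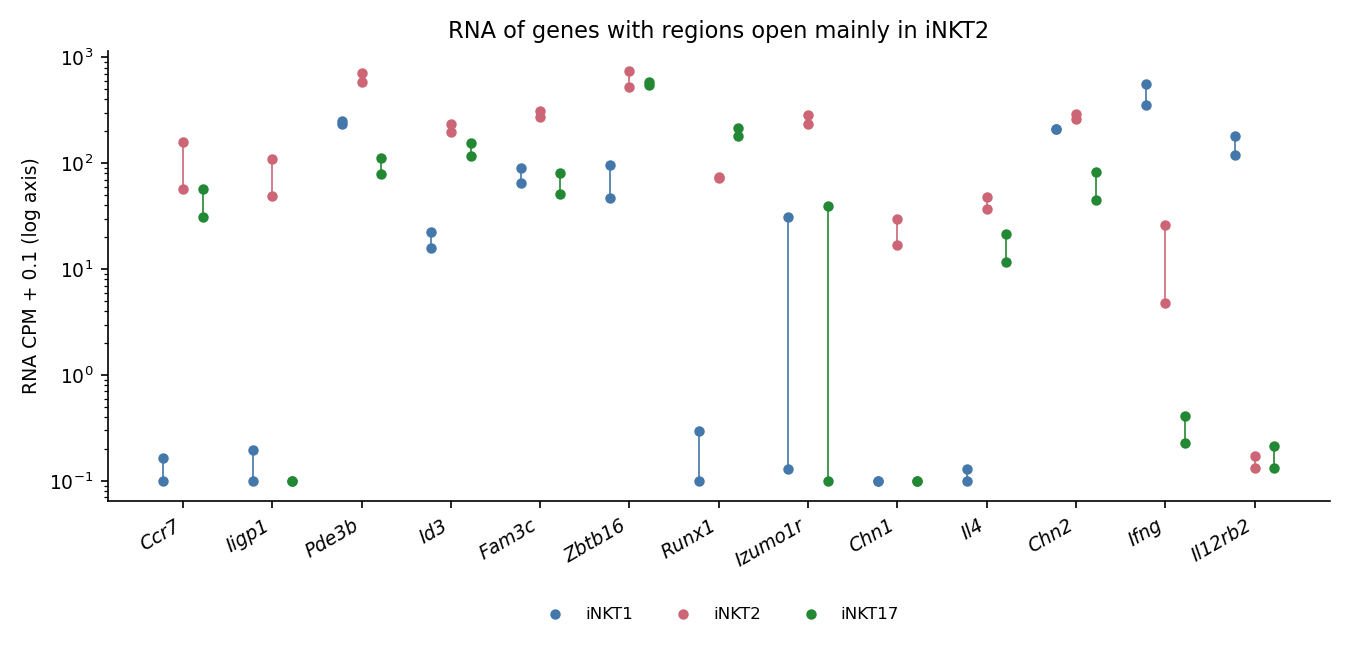
RNA level (CPM plus 0.1, log axis) in each library, with 1 point per library and a line joining the 2 libraries of a sublineage, for 13 genes with both-library regions. Pde3b, Id3, Fam3c, Izumo1r, Chn1, Chn2, Il4 and Iigp1 have both iNKT2 points above all others. In Ccr7 the lower iNKT2 point is barely above the higher iNKT17 point (57.6 against 56.6 CPM). Runx1 is higher in iNKT17, and Ifng and Il12rb2 are highest in iNKT1.

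By gene list, a gene counted as carrying a region that was assigned to it or had its start as the nearest listed start. On this count 931 of 15329 genes (6.07%) carried a both-library region. So did 4 of 18 type 2 program genes (Il4, Il13, Gata3 and Izumo1r). Such shares of genes also depend on how many regions each gene holds, which was not allowed for. By region, 5 of 167 at type 2 genes were both-library regions, against 857 of all 54489. The counts were 4 of 261 at iNKT identity genes and 6 of 249 at naive and quiescence genes. At type 1 and type 17 genes they were 3 of 172 and 3 of 152. Over all genes with a region 0.445% were higher in RNA against the mean of the others and 0.590% lower. RNA of 4 of the 16 type 2 genes tested was higher and 0 lower (Ccr4, Cd4, Il17rb and Il6ra), with a median log2 difference of 3.56 against 0.13 over all genes. None of these 4 is among the 4 with a region, but this depended on the processing. DESeq2 called 8 of 17 higher, among them Il4 and Il13, and Il4ra lower (4.09% and 4.48% of all genes with a region). Without the low-count filter edgeR called 6 of 17 higher, among them Izumo1r, and Il4ra lower (1.11% and 1.76%). Of 18 iNKT identity and development genes 3 carried a both-library region (Zbtb16, Id3 and Runx1). In that list 6 of 18 tested were higher and 0 lower (Icos, Id3, Myb, Runx1, Slamf6 and Zbtb16), with a median of 1.15. Of 20 type 1 program genes 17 were tested, and 0 were higher and 7 lower. DESeq2 called 1 of 20 tested higher (Cxcr3) and 11 lower. Without the low-count filter edgeR called 1 higher (Cxcr3) and 10 lower. In this list Ifng and Il12rb2 carried a both-library region. Among 17 type 17 program genes Rora alone did, and 1 of 15 tested was higher (Sox13) and 4 lower, with 0 higher when any iNKT2 or iNKT17 library was left out and 6 lower without iNKT1 library 2 or iNKT2 library 2. DESeq2 called 2 type 17 genes higher (Rora and Sox13) and 8 lower. Without the low-count filter edgeR called 1 higher (Sox13) and 10 lower. Of 14 naive and quiescence genes 4 carried a both-library region (Ccr7, Bach2, Foxp1 and Igfbp4). Igfbp4 counted only through chr11:99136420-99136830, a region assigned to Ccr7 whose nearest listed start, 95381 bp away, was that of Igfbp4. Of 12 tested, DESeq2 and edgeR without the filter each called 5 higher and 2 lower. With the filter edgeR called 2 higher and 1 lower. The 2 higher were Ccr7 and Igfbp4; without iNKT2 library 2, 1 was higher. Without either iNKT1 library or iNKT2 library 1, 4 were higher, and without either iNKT17 library 5 were higher and 2 lower.

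ATAC totals were 13299586 to 42964216 counts per library, lowest in iNKT2 library 2, and RNA totals were 26811373 to 33688697. Tbx21 RNA was 306 and 304 CPM in iNKT1 and 19.7 CPM or less elsewhere, with 0.304 and 19.7 CPM in iNKT2. Of 11 B cell markers 6 had no count in any library, and their summed level was 151 to 188 CPM in iNKT1, 5.88 to 15.2 CPM in iNKT2 and 31.8 to 137 CPM in iNKT17. Of 11 myeloid and dendritic cell markers 6 had no count, with 0.0897 to 10.1 CPM, 10.8 to 13.6 CPM and 11.7 to 51.8 CPM. Of 11 thymocyte markers outside the type 17 list, which include Arpp21 and Themis, 4 had none. These summed to 29.1 and 33.5 CPM in iNKT1, 178 and 109 CPM in iNKT2 and 25.3 and 81.9 CPM in iNKT17, so they were highest in iNKT2, where Themis itself made up 41.4 and 19.0 CPM. Both Arpp21 and Themis carried a both-library region. The 8 gamma delta T cell markers, 7 of them with RNA values, summed to 250 to 350, 1004 to 1020 and 1602 to 1885 CPM. The part of other cells in the results was not tested.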

How the data were processed

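Per the labels, thymic iNKT1, iNKT2 and iNKT17 cells were profiled by ATAC-seq and by stranded mRNA sequencing, 2 libraries each. The deposited values are raw counts per region (ATAC) and per gene (RNA), whole numbers, not normalized by the authors. The submitters' processing notes name STAR 2.5.4, bedtools 2.27.1, HOMER 4.9.1, Bowtie2, MACS2 and kallisto with mm10 and GRCm38, without saying which tool made which table; peak calling, pooling of replicates and removal of duplicate reads are not given in the sources used here. Column matching left 0 columns unmatched.

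ATAC CPM is the count over the column total; RNA CPM also uses TMM factors. The members and gene lists were chosen with earlier results of these data known. The deposited region table names no genes, so each region took the shortest named protein-coding RefSeq gene (GRCm38.p6) containing its centre, else the nearest of 18481; 18014 had RNA values by symbol (52403 of 52636 gene IDs had one). Region ends are as deposited.

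Counts were tested with edgeR 4.0.16 in R 4.3.3 (filterByExpr, TMM, robust quasi-likelihood fit, 6 libraries, 1 term per sublineage, Benjamini-Hochberg over all features), after tests on simulated data. The simulated counts of both assays had about the spread of the ATAC data, far below that of RNA, so they cannot speak for the RNA tests. SE values were computed from the F statistic. A fitted fold of a gene at or near 0 depends on the prior count. Named were the 10 strongest regions, the 3 on each side of the fold threshold, the 10 genes with the most regions, up to 10 higher and 6 lower genes called against the mean of the others without overlap averaging 4 or more on the log2 CPM scale, and type 2 and identity genes with a region (predicted genes and receptor segments left out); Ccr2, Cd81, Ets2, Ifng, Il10ra, Il12rb2, Maml2, Prkch, Ptprc, Ripor2, Tef, Tgfbr3, Themis, Tnfrsf4 and other names were chosen after their values were seen. DESeq2 1.42.0, no low-count filter, other thresholds, other assignments, the replicate number as a block and leaving out each library were alternatives. Values of some items are not reported here.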

Additional observations from a re-analysis of the deposited data

How the results depend on the processing

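Of 48 reported results, 364 alternative values kept direction and side of the threshold, 58 moved and 26 gene calls were lost; none reversed. The number of regions was 1065 at a minimum of 10 CPM, 857 with both iNKT2 libraries above the others, and 853 to 2036 when 1 library was left out. Leaving out 1 library gave 218 to 362 higher and 5 to 30 lower regions in iNKT17 against iNKT1. RNA counts then ranged from 9 to 33 higher and 5 to 22 lower against iNKT1, from 6 to 55 and 9 to 14 against iNKT17, and from 7 to 60 and 4 to 17 against the mean. The share of regions at start sites was 5.13% for both-library regions.

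DESeq2 called 57 higher and 53 lower genes against iNKT1 (background 3.95% and 4.35%), 74 and 43 against iNKT17 (5.28% and 4.90%), and 66 and 39 against the mean (4.09% and 4.48%). Without the low-count filter edgeR called 27 and 25 (1.40% and 2.30%), 20 and 21 (1.07% and 1.75%), and 27 and 23 (1.11% and 1.76%). Regions within 10 kb of a listed start site gave 2 and 0, 0 and 2, and 1 and 2. Assignment to the nearest listed start gave 3 higher and 3 lower against iNKT17 and 5 higher against the mean. Genes with a both-library region gave 0 lower against iNKT17 and 1 lower against the mean. The cause of these differences was not tested.

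Replicate numbers are shared across sublineages, but no label says that a number marks a shared animal or day. Differences between libraries 2 and 1 correlated at 0.661, 0.513 and 0.531 between pairs of sublineages in ATAC and at -0.08, 0.05 and -0.03 in RNA. With the replicate block, 395 regions were higher in iNKT17 than in iNKT1 and 33 lower, 4 of the lower being library 2 regions, against 28.7% and 24.8% of all regions, and edgeR's calls of Iigp1 (adjusted p = 0.0585), Il12rb2 against the mean (0.0566), Sh3pxd2b against the mean (0.0868), Maml2 (0.0696) and Slc29a1 (0.0611) were lost. Motifs in the regions themselves were not run, since no genome was used here, and neither was the alternative with iNKT1 cells split by CD4. Settings not listed as planned, such as the both-library set and nearest-start assignment, were chosen after seeing the data.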
